A study of Mus musculus with 12 samples.

Results

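The 7 organic ion transporter genes Slc22a2, Slc22a3, Slc22a4, Slc22a5, Slc22a6, Slc22a8 and Slc22a12 were followed across hearts and kidneys of mice with and without mENT1. They were taken by gene name or synonym from the probes that are not controls, and 7 of 7 were found. Together they had 10 of the 41174 probes and were 7 of the 27670 gene names on the arrays. mENT1, the product of Slc29a1, is an equilibrative nucleoside transporter that lets adenosine and other nucleosides cross the cell membrane. The 4 groups were mENT1 knockout kidney, wild type kidney, mENT1 knockout heart and wild type heart, with 3 arrays each, lettered a, b and c, and all mice were on the FVB/N background. Total RNA of whole tissue was labelled with Cy3 and hybridised to Agilent mouse arrays, 1 sample per array. The labels give no age, sex or treatment, and they do not say how the allele was made. In RNA from whole tissue, fewer cells of a type and less RNA per cell cannot be told apart.

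SLC22 proteins carry charged small molecules across the plasma membrane. In the proximal tubule of the kidney, organic cation and anion transporters on the blood side take drugs, toxins and metabolites up from plasma, and other carriers on the urine side either secrete them or, like the urate transporter, bring their substrates back. The OCTN members carry zwitterions such as carnitine, which heart muscle needs to burn fatty acids. Some organic cation and anion transporters also carry nucleoside-like drugs, as ENT1 does.

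The 2 short sequences below show what the arrays read. Both are probes, copied from the array files and placed on build mm7. That of Slc22a12 is its only probe, shown because the sign of the kidney change of this gene differs with and without knockout kidney a. The file places its 60 bases over a span of 1589 bases, chr19:6434158-6435746, on the minus strand. The other is 1 of 3 probes of Slc22a8, at chr19:8289317-8289376 on the plus strand. It is shown because it was not well above background on any heart, while the brightest probe of the gene was.
Slc22a12 probe A_51_P335519: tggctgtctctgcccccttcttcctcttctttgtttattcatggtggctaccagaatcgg
Slc22a8 probe A_52_P176956: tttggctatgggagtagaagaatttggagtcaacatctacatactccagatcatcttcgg

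Values are log2 processed signals relative to the 75th percentile of the probes of the array, so 0 is that percentile, and levels are compared between arrays for the same probe only. A change is a difference of group means, given with the standard error (SE) of a limma fit over all genes tested. The threshold for a call was 0.05 after Benjamini-Hochberg adjustment. The 75th percentile of the intensity lay between 451.2 and 878 over the 12 arrays. Slc29a1 averaged -1.39 ± 0.07 in knockout kidneys and 1.46 ± 0.18 in wild type kidneys (SD, n = 3 each). In hearts it averaged 1.17 ± 0.51 in knockouts and 3.24 ± 0.11 in wild types (SD, n = 3 each). It was called lower in both tissues (adjusted p = 0.00547 in kidney and 0.0362 in heart by limma), and in heart, with letter fitted as a replicate block, it missed that threshold (0.0671). With normexp background correction the kidney call was lost (0.700), with the sign kept. The deposited table of processed values has the genotypes the other way round, so all knockout directions here rest on the array files.

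Some values of single arrays stand beside those of the transporters. Xist, a marker of an inactive X, read 1.21 on knockout kidney a, 1.70 on knockout heart a and 1.69 on knockout heart b, and -7.97 or lower on all others. The Y-linked genes Ddx3y, Kdm5d, Eif2s3y and Uty read -8.79 or lower on the arrays with Xist. On the other 9 they read -5.242 or higher and were well above background. By these genes the samples with Xist read as female, and all others, with every wild type, as male. Letter b was thus with Xist in the knockout heart and without it in the knockout kidney, so a letter does not stand for 1 animal there. Knockout kidney a was alone on its slide. In heart no slide carried both genotypes, so the effects of slide and knockout cannot be told apart there. Dbp, an output gene of the circadian clock, was at 2.07 and 2.15 on knockout kidneys b and c and between 6.08 and 6.80 on the other 4 kidneys. The median of 6 liver genes lay between -1.47 and -0.91 in knockout hearts, against -5.71 to -4.10 in wild type hearts. In knockout kidneys a, b and c that median was -0.95, -1.65 and -3.18, against -3.61 to -2.84 in wild type kidneys. The part of the liver genes in the kidney values was not tested. The median of 8 proximal tubule genes lay within 5.41 to 5.61 in knockout kidneys and 5.45 to 5.83 in wild type kidneys, against -6.23 to -5.79 in knockout hearts and -6.82 to -5.74 in wild type hearts. Other medians, knockout kidneys first, were 0.52 to 1.36 and -0.79 to 0.04 for 4 podocyte genes. They were 2.23 to 3.17 and 1.45 to 2.11 for 4 collecting duct genes, and 3.72 to 5.05 and 4.43 to 4.92 for 4 thick limb and distal tubule genes. For 4 macrophage genes they were -2.20 to -2.07 and -1.40 to -0.93. The part of these genes in the kidney values was not tested.

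Kidney and heart of wild type mice differed in all 7 genes. Called higher in kidney were 6 and called lower was 1, Slc22a3, where 64.5% of 17983 genes were called, 30.3% higher and 34.2% lower. The median of the 7 changes was 4.94, against -0.07 over all genes tested. No slide held both tissues of a genotype, so slide and tissue cannot be told apart, and with slide as a random block 7 of 7 were again called. All 7 were called with normexp too, at changes of 10.003 for Slc22a6, 8.34 for Slc22a2, 5.42 for Slc22a8, 4.55 for Slc22a12, 3.99 for Slc22a4, 3.23 for Slc22a5 and -0.52 for Slc22a3.

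**Figure D1:**
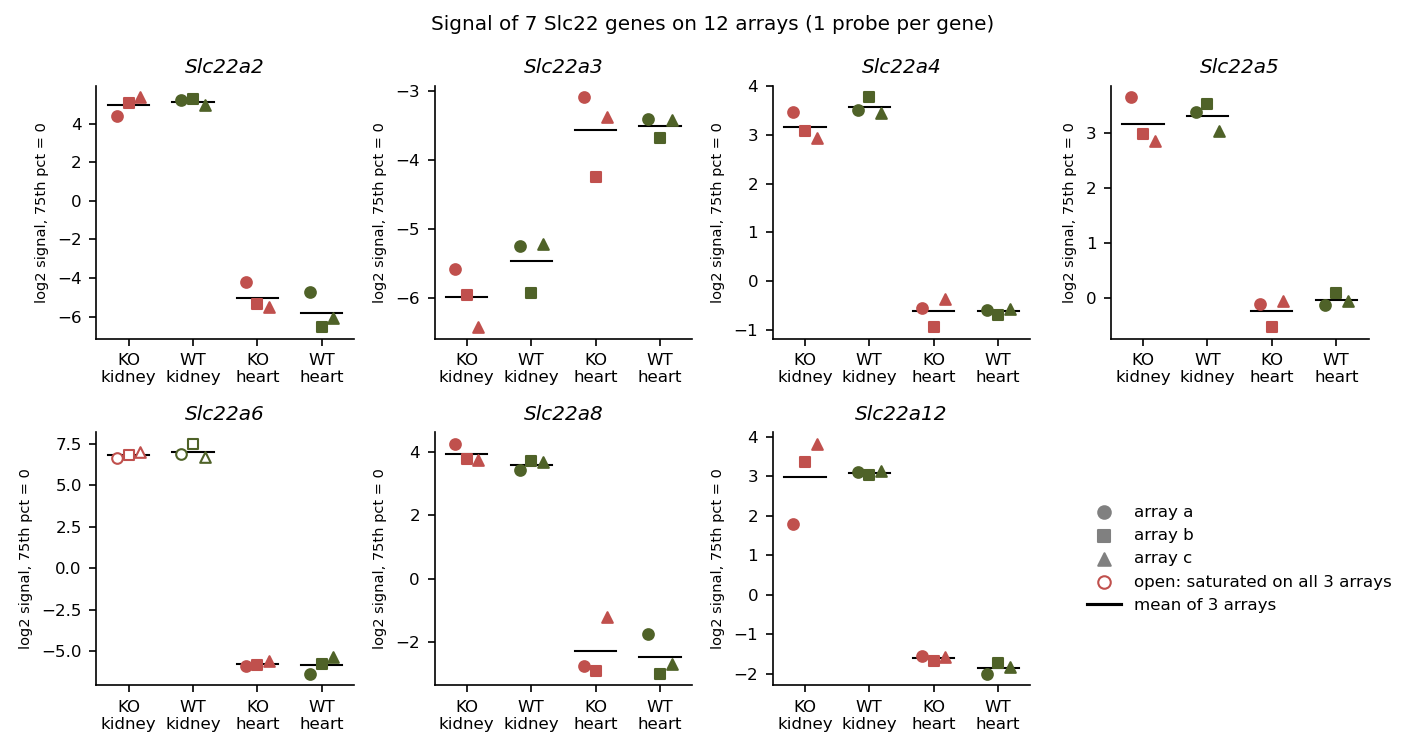
Log2 signal of each of the 7 genes (y axis, 75th percentile of the array = 0) on the 12 arrays by group (x axis), with 1 point per array, shaped by letter, and a line at the mean of 3; open points are saturated. The kidneys lie above the hearts for all genes but Slc22a3, and knockout kidney a of Slc22a12 is at 1.81 while the other 5 kidneys lie between 3.03 and 3.82.

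Among the anion transporters, Slc22a6 (OAT1), which takes organic anions such as para-aminohippurate up from blood, showed the largest difference of the 7. Its probe, at chr19:8306540-8306599, was saturated on all 6 kidney arrays, at 6.66, 6.79 and 7.02 in knockouts and 6.87, 7.49 and 6.68 in wild types. In hearts it read -5.89, -5.83 and -5.56 in knockouts and -6.34, -5.76 and -5.35 in wild types, with 1 wild type heart not well above background. Saturated spots give only a bound. In processed signal it was at least 7285-fold higher in wild type kidney than in wild type heart (adjusted p = 8.39e-08 by limma). That bound is 12.83 in log2, and with normexp the change was 10.003, below it. Saturation also means that no fold between knockout and wild type kidneys can be read from it.

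Slc22a8 (OAT3), the neighbouring anion exchanger of the same membrane, has 3 probes. The brightest, at chr19:8290434-8290493, read 4.25, 3.77 and 3.75 in knockout kidneys and 3.42, 3.72 and 3.67 in wild type kidneys. It read -2.76, -2.91 and -1.19 in knockout hearts and -1.75, -2.99 and -2.69 in wild type hearts, and these heart values were well above background on all 6 arrays. Wild type kidney exceeded wild type heart by 6.08 ± 0.31 on this probe (adjusted p = 2.86e-06 by limma). The other two probes, the one printed above and one at chr19:8291279-8291338, were not well above background on any heart. In processed signal they were at least 193.1-fold and at least 30.86-fold higher in wild type kidney than in wild type heart. A heart level of Slc22a8 was therefore read by 1 probe of 3 only.

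Slc22a12 (URAT1), which brings urate back from the forming urine, read 1.81, 3.35 and 3.82 in knockout kidneys and 3.12, 3.03 and 3.13 in wild type kidneys. In hearts it stood at -1.55, -1.66 and -1.56 in knockouts and -1.99, -1.72 and -1.83 in wild types. The wild type kidneys lay close together, and all 6 kidneys lay above all 6 hearts. Wild type kidney exceeded wild type heart by 4.94 ± 0.13 (adjusted p = 1.48e-07 by limma), which is 30.7-fold.

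Among the cation transporters, Slc22a2 (OCT2), which takes organic cations such as metformin into the tubule cell, came next in the size of that difference. Its probe lies at chr17:11345397-11345456 and read 4.40, 5.09 and 5.36 in knockout kidneys and 5.21, 5.27 and 4.97 in wild type kidneys. The hearts were spread over a wider range, with -4.23, -5.34 and -5.49 in knockouts and -4.73, -6.54 and -6.09 in wild types. The wild type difference was 10.94 ± 0.43 (adjusted p = 7.94e-07 by limma). Arrays lettered a were the highest of their group in both genotypes of heart.

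Slc22a3 (OCT3), the extraneuronal monoamine transporter, ran the other way. It read -5.58, -5.95 and -6.42 in knockout kidneys and -5.25, -5.93 and -5.22 in wild type kidneys, on a probe at chr17:11137618-11137677 that was well above background on 2 of 3 arrays of each kidney group. Its heart values, -3.09, -4.24 and -3.38 in knockouts and -3.41, -3.69 and -3.42 in wild types, were all well above background and all above the kidneys. The wild type change was -1.97 ± 0.22 (adjusted p = 0.000168 by limma), and with normexp it was -0.52 (0.0200).

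The carnitine and zwitterion carriers showed the smallest excess in kidney among the 6 higher genes. Slc22a5 (OCTN2), the high-affinity carnitine transporter, read 3.66, 2.99 and 2.86 in knockout kidneys and 3.39, 3.53 and 3.04 in wild type kidneys, on the probe at chr11:53821805-53821864. Its hearts lay close to the 75th percentile, at -0.12, -0.53 and -0.07 in knockouts and -0.14, 0.08 and -0.05 in wild types. The wild type change was 3.35 ± 0.17 (adjusted p = 2.57e-06 by limma). Slc22a4 (OCTN1), a carrier of ergothioneine whose probe lies at chr11:53940096-53940155, read 3.46, 3.08 and 2.93 in knockout kidneys and 3.50, 3.77 and 3.44 in wild type kidneys. It stood at -0.56, -0.94 and -0.36 in knockout hearts and -0.58, -0.69 and -0.56 in wild type hearts. Wild type kidney exceeded wild type heart by 4.18 ± 0.14 (adjusted p = 4.23e-07 by limma). Both carriers thus had a signal in heart well above background, on all 6 arrays.

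A second probe of Slc22a5 (A_52_P656659, chr11:53822313-53822372) shares a run of 33 of its 60 bases with the probe of Slc22a21 (OCTN3), the neighbouring mouse gene. Among 455 pairs of probes of different Slc22 genes this was the only run of 15 bases or more, and the next longest was 9. Whether either probe also reads the other gene was not tested, and the values of Slc22a5 given here come from its other probe.

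The same tissue comparison in knockouts, made after the data were seen, gave the same calls: 6 higher and Slc22a3 lower, where 53.5% of 18167 genes were called, 24.2% higher and 29.4% lower. The changes were 9.97 ± 0.42 for Slc22a2, -2.41 ± 0.37 for Slc22a3, 3.78 ± 0.23 for Slc22a4, 3.41 ± 0.27 for Slc22a5, 6.21 ± 0.48 for Slc22a8 and 4.58 ± 0.51 for Slc22a12. Slc22a6 was at least 6143-fold higher. The call and direction of Slc22a3 depend on the background correction: with normexp its knockout change was 0.23 (adjusted p = 0.872 by limma).

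Of 17 other Slc22 genes listed, 15 were on the array and 14 of them were tested between wild type tissues. Called higher in kidney were 11 and called lower 2, while Slc22a16 was not called, beside 30.3% higher and 34.2% lower of all genes. Slc22a30 was at least 3693-fold, Slc22a13 (a urate and nicotinate carrier) at least 1163-fold, Slc22a22 (a prostaglandin carrier) at least 460.1-fold and Slc22a19 (OAT5) at least 387.5-fold higher in kidney. None of these 4 was well above background on a wild type heart. Slc22a14 was at least 7.664-fold lower in kidney. These bounds hold for the processed signal only, and the floor they use is not a detection limit for each probe. With normexp the changes kept their calls but were below the bounds, at 8.80 for Slc22a30, 6.87 for Slc22a13, 5.49 for Slc22a22, 5.07 for Slc22a19 and -0.94 for Slc22a14, against bounds of 11.85, 10.18, 8.85, 8.60 and 2.94 in log2. Slc22a15 changed by -1.10 ± 0.21 (adjusted p = 0.00293 by limma) and lost its call with normexp, at 0.217.

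**Figure D2:**
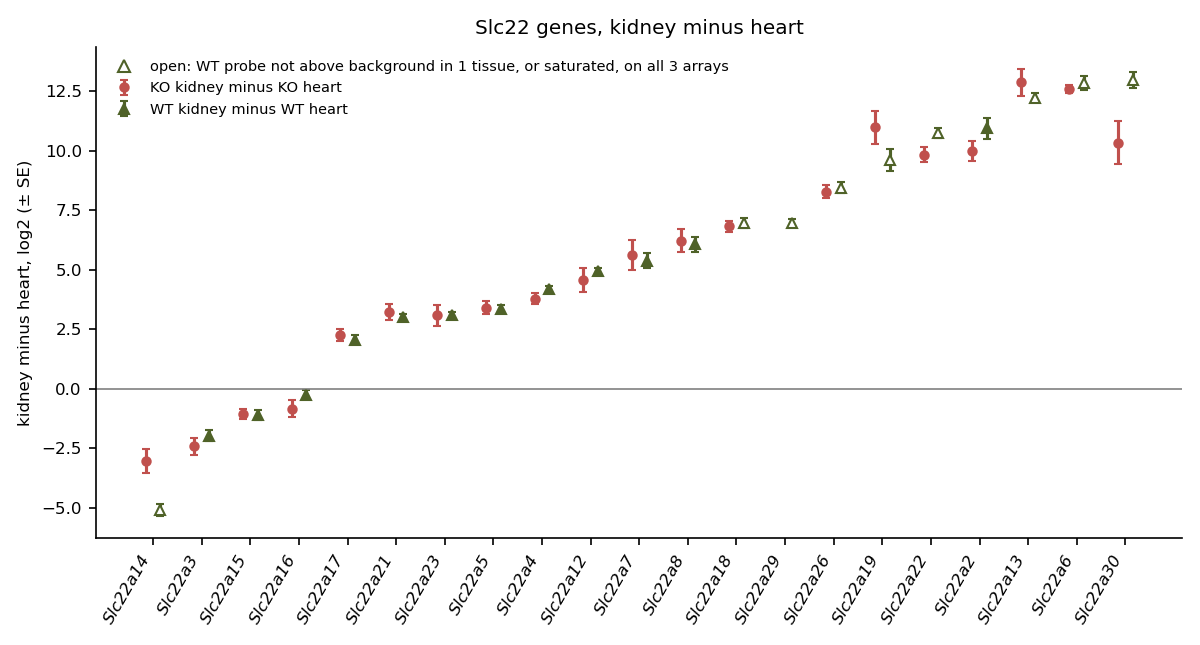
Kidney minus heart (y axis, log2 with SE of the limma fit, n = 3 and 3) for Slc22 genes (x axis), knockouts as circles and wild types as triangles. Open triangles are fitted values that cannot be read as a fold, because the wild type probe was dim in 1 tissue or saturated; they are not the bounds given in the text. Circles are not marked in this way. Only Slc22a14, Slc22a3, Slc22a15 and Slc22a16 lie below 0 in both genotypes.

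Knockout was compared with wild type in kidney, the tissue where 6 of the 7 genes were called higher in wild types. None of the 6 genes tested was called, where 0.163% of 17227 genes were. None had an unadjusted p under 0.05 either, against 13.2% of all genes. Slc22a3 was not tested in kidney, because no group had it above background on all 3 arrays. Slc22a6 was saturated on all 6 kidneys and is given no change. The median change of the other 5 was -0.15, against -0.07 over all genes. All 8 proximal tubule genes were lower in knockout kidneys, with changes from -0.65 to -0.08 and a median of -0.26; none was called, 2 had an unadjusted p under 0.05, and their part in the values of the transporters was not tested.

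Slc22a4 showed the largest of these changes in size, -0.41 ± 0.20 (adjusted p = 0.438 by limma). Its knockout kidneys b and c lay below all 3 wild types, and knockout kidney a lay among them. Slc22a8 changed by 0.32 ± 0.20 (adjusted p = 0.539 by limma), and it was the only 1 of the 6 tested whose groups did not overlap, with the knockouts above, where 8.79% of all genes were separated in that direction. Its other two probes gave 0.11 ± 0.39 and -0.27 ± 0.42, so its 3 probes differed in sign. The remaining changes were -0.20 ± 0.27 for Slc22a2, -0.15 ± 0.26 for Slc22a5 and -0.10 ± 0.49 for Slc22a12 (adjusted p between 0.775 and 0.946 by limma), with overlapping groups in each.

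**Figure D3:**
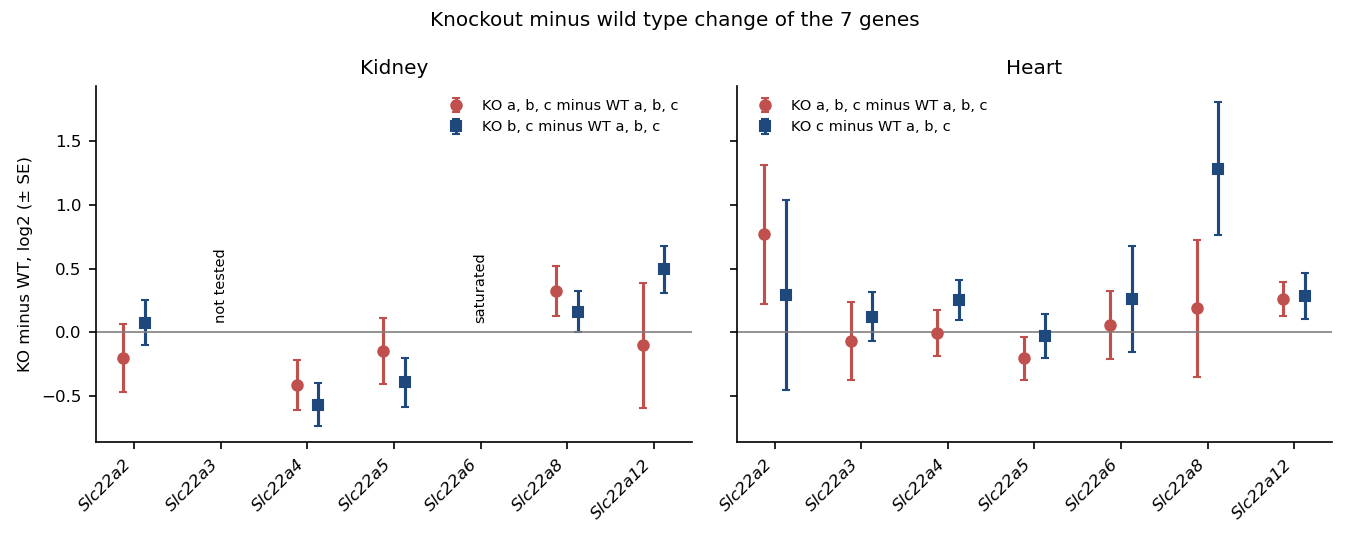
Knockout minus wild type change (y axis, log2 with SE of the limma fit) of the 7 genes in kidney and heart, with all arrays (circles, n = 3 and 3) and with only arrays without Xist signal (squares, 2 and 3 kidneys, 1 and 3 hearts). In kidney Slc22a6 was saturated and Slc22a3 not tested, so neither has a point there. In kidney Slc22a12 lies at -0.10 with all arrays and at 0.49 without knockout kidney a.

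The changes were also computed without knockout kidney a, the kidney with Xist. Without it Slc22a12 changed by 0.49 ± 0.19 (adjusted p = 0.244 by limma), with both remaining knockouts above all 3 wild types, and on the slide that held 2 kidneys of each genotype it changed by 0.51 ± 0.22 (0.265). Slc22a2 changed by 0.08 ± 0.17 without it and by -0.01 ± 0.19 within that slide. Slc22a4 changed by -0.57 ± 0.17 (adjusted p = 0.173 by limma) without it and by -0.63 ± 0.19 (0.160) within that slide. Slc22a5 changed by -0.39 ± 0.19 (0.344) and -0.53 ± 0.18 (0.187), and Slc22a8 by 0.16 ± 0.16 (0.637) and 0.20 ± 0.19 (0.604). None was called in either fit. These 2 knockouts are also the arrays with low Dbp, whose part in the values was not tested.

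Set against the other 5 kidneys, knockout kidney a lay outside their range in 5 of 6 genes tested, 2 above and 3 below, where 58% of 17111 genes did, 23.2% above and 34.8% below. It was above for Slc22a5 and for all 3 probes of Slc22a8, below for Slc22a12 and Slc22a2, and within for Slc22a4. Slc22a6 is counted as below at 6.66 against 6.68, but it was saturated. Against knockout kidneys b and c alone it was 3.44-fold lower for Slc22a12 and 1.77-fold lower for Slc22a2. In the other direction it was 1.66-fold higher for Slc22a5, and 1.40-fold, 2.51-fold and 2.88-fold higher for the 3 probes of Slc22a8. These are values of 1 array, with no replicate. On that array the median of 4 genes that depend on androgen in mouse kidney was 0.01, against 4.46 to 5.29 on the other 5 kidneys. The 4 genes were far apart there, with Slc7a13 at -5.41, Cyp4a12a at -1.23, Slco1a1 at 1.24 and Kap at 6.11. Kap lay between 6.22 and 6.94 on the other 5 kidneys, so it differed little. Xist, slide and these readings fall on the same array, and their parts were not tested.

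Among the other Slc22 genes the same array lay outside the other kidneys in 10 of 12, 6 above and 4 below, beside 58% of all genes, 23.2% above and 34.8% below. One of those below, Slc22a18, was saturated on all 6 kidneys, at 6.12 on knockout kidney a and 6.24 or more on the others. Slc22a30 read 1.47, 4.40 and 4.98 in knockout kidneys and 5.34, 5.42 and 4.72 in wild type kidneys, so that knockout kidney a was 9.35-fold below knockout kidneys b and c, and 32.1-fold below on its second probe. Slc22a19 read 4.12, 1.58 and 1.72 in knockouts and 1.97, 2.09 and 1.86 in wild types, 5.52-fold above b and c. Slc22a7 (OAT2) stood at 6.23, 4.37 and 4.58 in knockouts and 5.24, 5.30 and 4.59 in wild types, 3.39-fold above b and c. In each of these genes knockout kidney a lay outside the range of the other 5. Slc22a7 is also the family member nearest to Slc29a1, with probes 0.846 Mb apart on chromosome 17 of mm7, and its kidneys averaged 5.06 ± 1.02 in knockouts and 5.04 ± 0.39 in wild types (SD, n = 3 each).

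**Figure D4:**
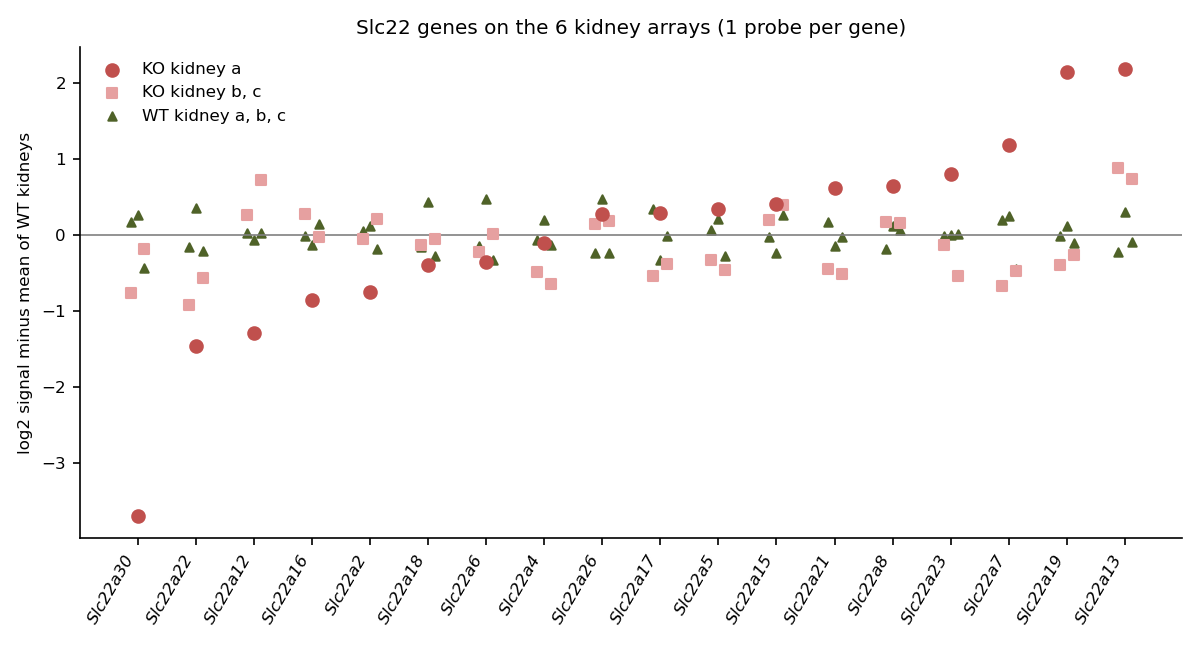
Log2 signal minus the mean of the wild type kidneys (y axis) for the Slc22 genes tested in kidney (x axis), with 1 point per array. Knockout kidney a runs from Slc22a30, far below the other 5 kidneys, to Slc22a13 and Slc22a19, above them, while Slc22a6 and Slc22a18 were saturated on all 6 arrays.

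None of the 13 other Slc22 genes tested was called between knockout and wild type kidneys, and 3, Slc22a13, Slc22a22 and Slc22a29, had an unadjusted p under 0.05. Over all genes 13.2% had such a p. Slc22a13 read 5.67, 4.37 and 4.23 in knockout kidneys and 3.27, 3.80 and 3.41 in wild type kidneys, so the groups did not overlap. Its change was 1.27 ± 0.40 (adjusted p = 0.249 by limma), and 0.81 ± 0.20 (0.132) without knockout kidney a. Slc22a22 read 0.69, 1.24 and 1.59 in knockouts, all below the wild types, which lay between 1.95 and 2.51. It changed by -0.98 ± 0.28 (adjusted p = 0.216 by limma) and by -0.74 ± 0.23 (0.191) without that array. Over all genes 8.79% had the knockout kidneys above without overlap. The share with the knockouts below is not given here, in kidney or heart. Slc22a29, read on knockout kidneys b and c only, changed by -0.57 ± 0.19 (0.284). Slc22a30 changed by -1.54 ± 0.87, and by -0.47 ± 0.28 without it. Slc22a19 changed by 0.50 ± 0.65, and by -0.32 ± 0.15 without it.

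In heart 0 of the 7 genes was called between knockout and wild type, where 0.664% of 17482 genes were, and none had an unadjusted p under 0.05, against 15.7% of all genes. Their median change was 0.06, against -0.07 over all genes. Slc22a12 was the only 1 of the 7 whose groups did not overlap, with the knockouts above, where 9.14% of all genes were. Its knockout hearts lay between -1.66 and -1.55 and its wild type hearts between -1.99 and -1.72, a change of 0.26 ± 0.13 (adjusted p = 0.363 by limma). Slc22a2 changed by 0.77 ± 0.55 (0.473), and by 0.77 ± 0.19 (0.195) with letter as a replicate block. Its knockout heart was above the wild type of the same letter in 3 of 3, a pairing that no label gives. With normexp Slc22a2 changed by 0.15 ± 0.18 (0.7245), and by 0.29 with only the arrays without Xist. Slc22a5, the carnitine transporter, changed by -0.20 ± 0.17 (0.532). Slc22a3, Slc22a4, Slc22a6 and Slc22a8 changed by -0.07 ± 0.30, -0.01 ± 0.18, 0.06 ± 0.27 and 0.19 ± 0.54, with overlapping groups. Knockout heart b was the lowest of the 6 hearts for Slc22a3, Slc22a4 and Slc22a5, and knockout heart c the highest for Slc22a8. With only the arrays without Xist, which leaves knockout heart c assumed to vary like the wild types, Slc22a8 changed by 1.28 ± 0.52 (0.540). Knockout hearts also differed among themselves in genes of other organs. The median of 6 thymus and T cell genes read 3.34 in knockout heart a, 4.37 in b and -3.91 in c, against -4.73, -4.90 and -4.99 in wild type hearts. The median of 4 lung genes was 5.37 on knockout heart a and -4.96 or lower on the other 5 hearts. The part of these genes, and of the liver genes above, in the heart values was not tested.

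Of the 8 other Slc22 genes tested in heart none was called and 2, Slc22a14 and Slc22a17, had an unadjusted p under 0.05. Over all genes 15.7% had such a p. Slc22a14 read -5.92, -4.56 and -4.78 in knockout hearts and -3.49, -3.44 and -3.97 in wild type hearts, with no overlap. It changed by -1.45 ± 0.38 (adjusted p = 0.200 by limma), and with normexp by -0.56 ± 0.21 (0.325). Slc22a17 changed by -0.40 ± 0.13 (0.271), also without overlap. Slc22a16, a carnitine carrier of testis, changed by 0.38 ± 0.24 and Slc22a15 by 0.28 ± 0.24, with adjusted p between 0.436 and 0.533 by limma.

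The knockout effect was also compared between the tissues, as the kidney change minus the heart change in a fit of all 12 arrays. None of the 7 genes was called or had an unadjusted p under 0.05, where 0.632% of 18501 genes were called and 14.6% had such a p. Without Slc22a6, saturated in kidney, the differences ran from -0.97 ± 0.66 for Slc22a2 to 0.14 ± 0.62 for Slc22a8, with adjusted p between 0.517 and 0.957 by limma.

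Genes that work with these transporters were described from 3 further lists. Over all genes tested, 0.163% in kidney and 0.664% in heart were called. An unadjusted p under 0.05 was found in 13.2% and 15.7% of them. Of the partner transporters and scaffolds 19 were tested in kidney and 10 in heart, and none was called in either tissue, while 3 and 2 had an unadjusted p under 0.05. In knockout kidneys 17 were lower and 2, Abcb1b and Slco1a4, higher, where 41.5% of all genes were higher. In knockout hearts 8 were lower and 2 higher, where 42.2% of all genes were higher. The median change was -0.17 in kidney and -0.30 in heart, against -0.07 over all genes in each. Abcb1b, an efflux pump of organic cations, read 2.71, 0.64 and 0.45 in knockout kidneys and 0.11, 0.34 and 0.76 in wild type kidneys, a change of 0.86 ± 0.59 (adjusted p = 0.582 by limma). Knockout kidney a lay again above the other 5, 4.48-fold above b and c. Slco1a1, an organic anion carrier of the apical membrane, read 1.24, 2.48 and 2.81 in knockout kidneys and 3.18, 3.44 and 3.08 in wild type kidneys, a change of -1.06 ± 0.40 (0.331) without overlap. Slco1a1 is also 1 of the 4 androgen-dependent genes above. Without knockout kidney a it changed by -0.59 ± 0.19 (0.195), and on its second probe that array read -7.46, against 1.293 and 1.504 on knockout kidneys b and c. Slc2a9 (GLUT9), the urate carrier of the blood side, was named after its values were seen, because it had the lowest p of the list. It read -3.22, -3.57 and -3.70 in knockout kidneys and -2.88, -2.72 and -2.90 in wild type kidneys and changed by -0.66 ± 0.18 (adjusted p = 0.195 by limma). The groups did not overlap on that probe and overlapped on its 3 others. Slc5a8, a sodium-coupled carrier of lactate and other monocarboxylates, changed by -0.79 ± 0.31 (0.338) and Slco1a4 by 0.40 ± 0.21 (0.479). In heart Pdzk1, the scaffold that binds URAT1 and OCTN2 in the brush border, changed by 0.84 ± 0.20 (adjusted p = 0.169 by limma) without overlap, at a level between -5.54 and -5.16 in knockouts and -6.45 and -5.85 in wild types. Of the wild type hearts 2 of 3 were well above background, and with normexp the change was 0.09 ± 0.21 (0.889). Slc9a3r1, a second scaffold, changed by 0.37 ± 0.31, and the efflux pumps Abcb1b and Abcc4 by -0.51 ± 0.24 and -0.47 ± 0.17, with adjusted p between 0.293 and 0.527 by limma.

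The carnitine list holds the enzymes that make and use what OCTN2 carries. All 10 were tested in both tissues and none was called, with 1 in kidney and 0 in heart at an unadjusted p under 0.05. In kidney Cpt1a, which loads fatty acids onto carnitine, read 4.20, 4.21 and 4.07 in knockouts and 4.61, 4.93 and 4.45 in wild types, a change of -0.50 ± 0.18 (adjusted p = 0.295 by limma) without overlap. Its second probe gave -0.06 ± 0.16 with overlap. Crat, carnitine acetyltransferase, changed by 0.22 ± 0.15, Bbox1, the last enzyme of carnitine synthesis, by 0.13 ± 0.73 and Aldh9a1, an earlier one, by -0.63 ± 0.30. The other probe of Aldh9a1 gave 0.16 ± 0.16, so its 2 probes differed in sign. In heart Bbox1 changed by 0.95 ± 0.44 (0.340) without overlap, Aldh9a1 by 0.26 ± 0.19, Crat by -0.29 ± 0.24 and Cpt1b, the muscle form of the loading enzyme, by -0.48 ± 0.29. With normexp the heart change of Bbox1 was 0.31 ± 0.18 (adjusted p = 0.455 by limma). Of the 10, 6 were called higher and 3 lower in wild type kidney than in wild type heart, beside 30.3% and 34.2% of all genes, and Cpt1b was among the lower, at -3.80 ± 0.25.

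The regulators are transcription factors and receptors linked to Slc22 levels in kidney or liver. Of these, 7 were tested in kidney and 6 in heart, and none was called, with 1 in kidney and 0 in heart at an unadjusted p under 0.05. Bcl6, a transcriptional repressor, read 2.40, 3.32 and 3.27 in knockout kidneys and 5.01, 3.77 and 4.85 in wild type kidneys, without overlap. It changed by -1.55 ± 0.40 (adjusted p = 0.186 by limma). Prlr, the prolactin receptor, changed by 1.64 ± 1.13 (0.582), Ppara, a receptor that controls fatty acid use, by 0.33 ± 0.35 (0.713) and Hnf4a by -0.17 ± 0.15 (0.652), with its other two probes at 0.36 ± 0.34 and -0.39 ± 0.21. Prlr was at 0.58 on knockout kidney a and at -3.84 and -3.69 on knockout kidneys b and c. In heart Esr1, the oestrogen receptor, changed by 0.45 ± 0.38, Hnf4a by 0.14 ± 0.12, Prlr by -0.36 ± 0.28 and Ppara by -0.17 ± 0.39, with adjusted p between 0.5005 and 0.820 by limma.

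For each gene the 2 genes whose deviations from their own mean were nearest over the 6 arrays of a tissue were taken, by the root mean square difference. In kidney Slc22a12, whose values varied most, lay nearest to Ttc36 (0.12) and Fhl3 (0.12), against a spread of its own of 0.61. Slc22a2 lay nearest to Tmem91 and Dph1, Slc22a4 to Erap1 and Tmem131l, Slc22a5 to Fyb2 and Tmed6, and Slc22a8 to Lrrc27 and Ric3, at 0.03 to 0.05 each. In heart Slc22a2 lay nearest to Pde3b (0.22) and Slc22a8 to Vmn1r10 (0.18). These are the nearest of 13876 genes in kidney and 14298 in heart, over 6 arrays, and carry no test.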

How the data were processed

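The authors deposited 1 scanner file for each array, holding the intensity of every spot. The software was Agilent Feature Extraction, version 9.5.3.1 in the file headers and 9.1 in the submitters' processing notes. The processed signal is an intensity after background subtraction, per the file headers. The deposited table of log2 values is centred on each probe's median within a tissue, as its values show. Each of its 12 columns follows the array with its own letter and tissue and the opposite genotype (r of 0.9999 or more). The array files were used, where Slc29a1 is lower in knockouts, and the table, with columns as they follow the arrays, was an alternative.

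Signals were taken to log2, outlier spots were left out, replicate spots averaged and each array shifted to its 75th percentile. A gene was tested where its probe passed Agilent's well-above-background flag on all 3 arrays of 1 group or more, and its brightest such probe stood for it. A spot left out on 1 array leaves n = 2 there, as for Slc22a29 in knockout kidneys. A bound sets the brighter group's mean against, per array, the higher of the dim probe's signal and the lowest signal well above background. For a probe saturated in the brighter group, as for Slc22a6, the measured mean of the other group was used. The lowest such signal, -6.57 on average in wild type kidneys, is not a detection limit for every probe. Slc22a3 missed the flag on 1 wild type kidney, with values of -5.25, -5.93 and -5.22. The bounds may thus be too high for some probes. Groups were compared with limma 3.58.1 in R 4.3.3, with Benjamini-Hochberg adjustment over all genes tested. An exact permutation test of 3 against 3 arrays cannot go below 0.1. The number of arrays limits the precision. The series describes 3 knockout and 3 wild type mice. Xist was on knockout hearts a and b but on knockout kidney a only. As labelled, the same 3 knockout mice thus did not give both tissues. The p-values measure only the spread between these samples. The fits were tested on simulated data. Alternatives were another background correction, scaling, filter, summary of probes, block and covariate, and each array left out in turn.

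Arrays of the same letter deviated together between the genotypes in heart (r of 0.39, 0.19 and 0.26). The rule for a pairing was that every r exceeds 0.1, which was set on these data and is no test. No label pairs the hearts, so letter as a replicate block is an alternative only. With letter as a replicate block 55 genes were called in heart, against 116 without it, and 0 of the 7.

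The 7 genes and the lists were chosen with earlier results of these data known. Genes of the lists were named by a rule: those called, up to 4 per direction, and otherwise the 2 largest rises and the 2 largest falls. Slc22a7, Slc22a18, Slc22a21, Slc22a29 and Slc2a9 are named outside this rule. Some genes of these lists are not reported here and are in no count of a list. Exon and UTR positions on mm7 were not used here, and neither were protein sequences.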

Additional observations from a re-analysis of the deposited data

How the results depend on the processing

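With 3 arrays a group, a gene that was not called is not shown to be unchanged. None of the 7 genes was called between knockout and wild type, in kidney, heart or their difference, under any alternative tried, and all tested were called between tissues except Slc22a3 of knockouts with normexp (0.23). The other calls that were lost were Slc22a15 between wild type tissues with normexp (-0.26) and Slc29a1. The call of Slc29a1 was lost in heart with quantile normalization (adjusted p = 0.0579 by limma), no filter (0.0863), probes above background on every array (0.0562) and Xist as a covariate (0.182), and in kidney with normexp (0.700), while leaving out single arrays gave 0.00782 to 0.185 in heart and 0.00669 to 0.0730 in kidney. It was lost without knockout heart a, without each wild type heart and without wild type kidney a.

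In kidney, where the same-letter arrays did not deviate together (r of 0.10, -0.01 and -0.15), letter as a replicate block gave 2 called genes in place of 28, and Slc29a1 missed the threshold (0.0745). In heart the replicate block changed no call among the 7.

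Signs turned without the arrays with Xist, or with Xist as a covariate, which gives the same values. In heart these were Slc22a3 (0.12), Slc22a4 (0.25), Slc22a16 (-0.0097), Slc22a15 (-0.074), Slc9a3r1 (-0.28), Aldh9a1 (-0.025), Crat (0.10), Prlr (0.24) and Ppara (0.33). In kidney they were Slc22a2 (0.077), Slc22a12 (0.49, and 0.51 within the shared slide), Slc22a19 (-0.32 and -0.38) and Bbox1 (-0.70 and -0.82). Other turns in heart were Slc22a6 with quantile normalization (-0.16) and median scaling (-0.10), and Hnf4a with normexp (-1e-04), quantile normalization (-0.085) and median scaling (-0.029). With all 12 arrays in 1 fit Hnf4a changed by -0.11 in heart, but there another probe, A_52_P683991, stood for it. That probe averaged -8.75 in knockout and -8.65 in wild type hearts and was not well above background on any heart. In kidney Crat turned with normexp (-0.050). With the deposited table Hnf4a changed by 0.36 in kidney, a value close to that of its probe A_51_P198473 on the array files. That probe averaged -0.12 in knockout and -0.48 in wild type kidneys, and it is not the probe of the reported kidney change. In the difference between tissues normexp turned Slc22a3 (0.75), Slc22a5 (-0.26) and Slc22a8 (-0.044).

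Leaving out 1 array at a time turned signs over these ranges: in heart Slc22a3 from -0.31 to 0.27, Slc22a4 from -0.14 to 0.15, Slc22a6 from -0.20 to 0.29, Slc22a8 from -0.36 to 0.55 and Ppara from -0.42 to 0.27; in kidney Slc22a2 from -0.40 to 0.077, Slc22a5 from -0.39 to 0.0051, Slc22a12 from -0.51 to 0.49, Slc22a19 from -0.32 to 0.94, Bbox1 from -0.70 to 0.87 and Ppara from -0.052 to 0.53. For the difference they were -0.19 to 0.21 for Slc22a5, -0.23 to 0.68 for Slc22a8 and -0.77 to 0.23 for Slc22a12. The cause was not tested.

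Over all genes, 116 were called in heart, against 17 with normexp, 60 with quantile normalization, 55 without a filter, 27 with probes above background on every array, 213 with all 12 arrays in 1 fit, 295 with only arrays without Xist, and 26 to 2251 without single arrays. In kidney 28 were called, against 0 with normexp, 104 with median scaling, 4 without a filter, 50 with the mean of a gene's probes, 74 with all 12 arrays in 1 fit, 121 with Xist as a covariate, 245 within the shared slide, and 1 to 94 without single arrays. For the difference 117 were called, against 0 with normexp, 78 without a filter, 46 with probes above background on every array, and 40 to 1505 without single arrays. For the knockout tissues 9728 were called, against 3155 with normexp. The replicate block for the tissue comparisons, slide as a random block and the comparison of knockout tissues were chosen after seeing the data.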
